A study of Homo sapiens with 6 samples.

Results

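IGF2 and the genes of the insulin-like growth factor (IGF) axis were followed in H1299, an established cell line of human non-small cell lung carcinoma, in which SETDB1 had been targeted. The axis was taken as 10 genes: the growth factor gene IGF2, the non-coding RNA gene H19, the receptor genes IGF1R, INSR and IGF2R, the adaptor gene GRB10, the receptor substrate genes IRS1 and IRS2, and the RNA-binding protein genes IGF2BP1 and IGF2BP3. They were taken by symbol through GENCODE 29, and 9 of the 10 had a row among the 18677 genes of the table; H19 was not analysed here. IGF2 was chosen by its measured rise in the knockout libraries of these data, so its values are a description without a test, and the other genes were listed with results of these data known.

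The study used RNA-seq libraries from 6 samples. The SETDB1-knockout group (n = 3) carried the guide RNA hSETDB1 sg1 and the control-knockout group (n = 3) carried the guide RNA Control sg2. Both groups were H1299 lines grown with puromycin, so each group rests on 1 guide. Whether its 3 samples were separate cultures, or came from 1 clone, is not stated. P-values therefore measure only the spread between these samples, which may be technical. Library totals ran from 29532057 to 35941288 counts. Levels are in CPM, read counts scaled to a common library size, with mean ± SD of 3 libraries, and a positive log2 fold change means a higher level in the SETDB1 knockout (± SE from the fit). In bulk RNA, fewer cells that express a gene and less RNA per cell cannot be told apart. SETDB1 mRNA stood at 38.6 ± 2.31 CPM in the knockout and 43.5 ± 1.76 CPM in the control (log2 fold change -0.17 ± 0.06, edgeR adjusted p = 0.0151). Small guide-directed edits can leave mRNA in place, so this small difference checks the labels weakly.

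The libraries held the keratins and vimentin of a partly mesenchymal carcinoma line. The keratins KRT8 (157 CPM in the knockout and 367 CPM in the control) and KRT18 (332 and 599 CPM) fell, as did CDH2, the N-cadherin gene (44.3 and 100.4 CPM; edgeR adjusted p of each 6.53e-11 or lower). VIM stood at 2216 and 2430 CPM (log2 fold change -0.13, edgeR adjusted p = 0.0441), a call kept under 7 of 14 alternatives. The part of these marker changes in the results was not tested. EPCAM was near 0 (0.179 and 0.254 CPM) and KRT19 and CDH1 were not analysed here. Of 5 lung lineage markers 2 had a row, with summed levels of 0.664 to 1.05 CPM in the knockout and 0.601 to 0.946 CPM in the control. Of 7 markers of blood, endothelium and fibroblasts 4 had a row, at 1.33 to 1.55 CPM and 2.02 to 2.47 CPM.

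IGF2 is a fetal growth factor whose gene is imprinted, so that in most tissues the paternal copy is read and the maternal copy is silent, and its neighbour H19 is read from the other parental copy. The factor signals through the receptor kinases IGF1R and INSR, which phosphorylate the docking proteins IRS1 and IRS2 and so engage PI3 kinase and AKT, while IGF2R binds IGF2 at the cell surface and carries it to the lysosome. GRB10, itself imprinted in some tissues, binds the activated receptors and dampens their signal. IGF2BP1 and IGF2BP3 are oncofetal RNA-binding proteins named for their binding of IGF2 mRNA. SETDB1 methylates histone H3 at lysine 9, a mark of silent chromatin.

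RefSeq promoter windows (GRCh38.p14, 250 bases before to 50 after an annotated start) were found for 8 of the 10 genes, and the entries for IGF2 and IGF2BP1 were missing. The windows below are printed 5′ to 3′ on the strand of the gene with each CG dinucleotide in capitals. They are shown because GRB10 and IRS2 had the steepest rises and IGF1R the steepest fall among the genes of the axis that have an entry. GRB10 has 5 annotated starts in RefSeq, of which starts 1 and 5 as listed are given.
GRB10 start 1, chr7:50793404-50793703, minus strand: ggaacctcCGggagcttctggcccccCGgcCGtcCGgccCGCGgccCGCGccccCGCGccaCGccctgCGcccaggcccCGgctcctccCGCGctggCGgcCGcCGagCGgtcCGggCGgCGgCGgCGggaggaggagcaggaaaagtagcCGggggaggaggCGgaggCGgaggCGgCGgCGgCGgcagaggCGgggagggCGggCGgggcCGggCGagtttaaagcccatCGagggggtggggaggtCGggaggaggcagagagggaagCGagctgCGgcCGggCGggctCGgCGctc
GRB10 start 5, chr7:50705252-50705551, minus strand: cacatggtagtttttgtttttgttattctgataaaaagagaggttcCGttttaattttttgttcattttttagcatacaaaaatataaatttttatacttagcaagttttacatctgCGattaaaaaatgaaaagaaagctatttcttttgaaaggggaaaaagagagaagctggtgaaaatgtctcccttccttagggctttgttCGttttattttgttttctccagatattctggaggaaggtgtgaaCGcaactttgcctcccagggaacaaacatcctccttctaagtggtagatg
IRS2, chr13:109786534-109786833, minus strand: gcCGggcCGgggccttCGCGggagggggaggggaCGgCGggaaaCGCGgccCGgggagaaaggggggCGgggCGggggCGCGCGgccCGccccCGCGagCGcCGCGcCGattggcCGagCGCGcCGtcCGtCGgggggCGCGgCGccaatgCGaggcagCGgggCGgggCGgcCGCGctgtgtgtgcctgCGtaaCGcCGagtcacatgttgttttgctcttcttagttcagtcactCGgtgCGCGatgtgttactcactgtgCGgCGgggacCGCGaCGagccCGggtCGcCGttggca
IGF1R, chr15:98648289-98648588, plus strand: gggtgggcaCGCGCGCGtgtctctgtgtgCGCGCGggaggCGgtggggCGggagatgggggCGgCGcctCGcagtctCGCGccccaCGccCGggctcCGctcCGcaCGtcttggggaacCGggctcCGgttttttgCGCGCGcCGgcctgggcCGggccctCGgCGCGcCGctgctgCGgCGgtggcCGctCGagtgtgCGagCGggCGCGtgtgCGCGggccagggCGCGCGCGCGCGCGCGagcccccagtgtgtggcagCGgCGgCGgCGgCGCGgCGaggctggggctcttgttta

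The window of GRB10 start 1 held 44 CG dinucleotides and 95.8% of all 35116 promoter windows of that length held fewer, whereas that of start 5 held 4, with 24.5% below it. The other 3 GRB10 windows held 49, 24 and 3. IRS2 held 50 and IGF1R 55, so a gene that rose and a gene that fell both stood near the top of the range (98.7% and 99.6% of windows had fewer). Counts per gene do not tell which of the GRB10 starts was used. The letters GTAAACA, a core of the FOXO binding motif, were in none of the 12 windows of these 8 genes on either strand. Only 3.42% of all windows held them, so 12 windows are too few to show a lack.

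In the SETDB1 knockout IGF2 and GRB10, which had almost no reads in the control cells, were expressed. Both substrate genes rose, IRS1 1.54-fold and IRS2 2.66-fold, and IGF2R and INSR rose slightly. The signalling receptor gene IGF1R fell 1.80-fold, and IGF2BP1 and IGF2BP3 fell by less. By edgeR's quasi-likelihood test with Benjamini-Hochberg adjustment over 17675 genes, all 8 measured genes other than IGF2 were called, with 5 higher and 3 lower. The 5 include GRB10, which passed the filter on low counts only through its knockout libraries, so its call is a description. In the whole comparison 63.5% of genes were called, 31.9% higher and 31.6% lower, and 66.8% had groups whose libraries did not overlap in CPM, so neither a call nor separate groups set these genes apart. A called rise of at least 2-fold, found in 7.14% of all genes, was seen for IRS2 and, as a description, for GRB10. A called fall of at least 2-fold, found in 5.78%, was seen for none of the 8.

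**Figure D1:**
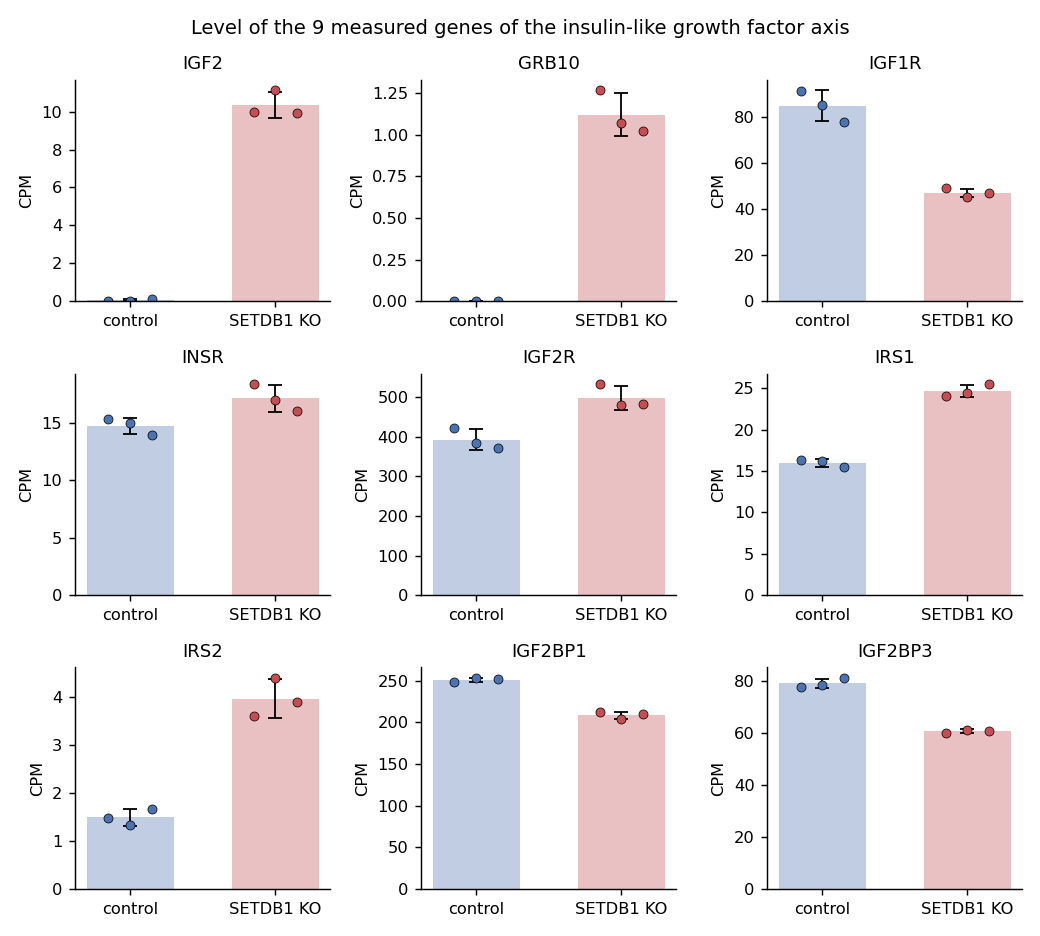
Level of the 9 measured genes in each library, in CPM on linear axes that start at 0. Points are libraries, bars are means and error bars are SD over 3 libraries. IGF2 and GRB10 stood at or near 0 in the control and at 10.3 and 1.12 CPM in the SETDB1 knockout, and the groups do not overlap in any panel.

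IGF2 (ENSG00000167244, chromosome 11, 2129112 to 2149603, minus strand, GRCh38) had 299, 385 and 340 counts in the SETDB1-knockout libraries and 1, 1 and 4 counts in the control libraries. In CPM these were 9.96, 11.1 and 9.95 against 0.0334, 0.0315 and 0.113. The groups were far apart, and the 3 knockout libraries lay close together. The ratio of the scaled group counts was 168 (95% exact counting interval 76.8 to 458, counting error only). Control replicate 3 held 4 of the 6 control counts, and without it the ratio was 320 (88.3 to 2643). Fitted increases were larger than that of IGF2 for 76 of the genes tested, although fitted folds over near-zero counts are not exact. The genes on both sides of IGF2 had a median log2 fold change of 0.06.

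Only 24.99% of the exon bases of IGF2 in GENCODE 29 are free of other annotated genes. The genes that overlap its exons are INS-IGF2, a readthrough gene, a second IGF2 gene model and AC132217.1, all on the same strand, and the antisense gene IGF2-AS. How reads in the shared bases were assigned is not known here, so no level per length is given for IGF2. Strandedness of the libraries is also unknown here, so IGF2 reads and IGF2-AS reads cannot be told apart.

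GRB10 (ENSG00000106070, chromosome 7, 50590063 to 50793462, minus strand) had 38, 37 and 35 counts in the knockout libraries and 0 in each control library. Its knockout levels were 1.27, 1.07 and 1.02 CPM, and no control library reached them. With a floor of 3 counts over the control group it was at least 36.03-fold higher (at least 22.9-fold without control replicate 3, since the floor then rests on fewer libraries). Its exons overlap no other gene.

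Of 2 other tested genes that lie at least in part within 500 kb of GRB10, COBL (chromosome 7, 51016212 to 51316818), which encodes an actin nucleator, followed the same pattern. It had 65, 62 and 78 counts in the knockout and 0, 1 and 0 in the control, a ratio of 201 (95% exact counting interval 35.8 to 7996). That ratio was 128 without control replicate 3, and at least 45.2 without control replicate 2, which held the 1 control count. COBL, too, passed the filter on low counts only through its knockout libraries, so its values are a description. FIGNL1, on the other side, changed little (FIGNL1 log2 fold change -0.16, edgeR adjusted p = 0.0461, range 0.0258 to 0.194 over the alternatives). The wider surroundings of GRB10 and COBL went the other way, with a median log2 fold change of -0.35.

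Around IGF2, 8 other tested genes lay at least in part within 500 kb, and none of them rose like IGF2. Of these 2 were called higher and 1 lower, against 31.9% and 31.6% of all genes tested, and their median log2 fold change was 0.02. MRPL23, a mitochondrial ribosomal protein gene, rose from 24.6 ± 1.18 to 28.7 ± 0.916 CPM, and the antisense RNA KCNQ1OT1, which is imprinted, from 31.3 ± 0.652 to 36.6 ± 3.34 CPM, where antisense reads cannot be told apart from those of KCNQ1. LSP1, a leukocyte actin-binding protein gene, fell from 1.05 to 0.553 CPM. CD81 and CTSD, both abundant, did not pass the test. The tested genes whose starts lie nearest to that of IGF2 are at 198 kb (RPL26P30) and -202 kb (MRPL23). H19, INS, TH and ASCL2 of the same imprinted domain were not analysed here.

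**Figure D2:**
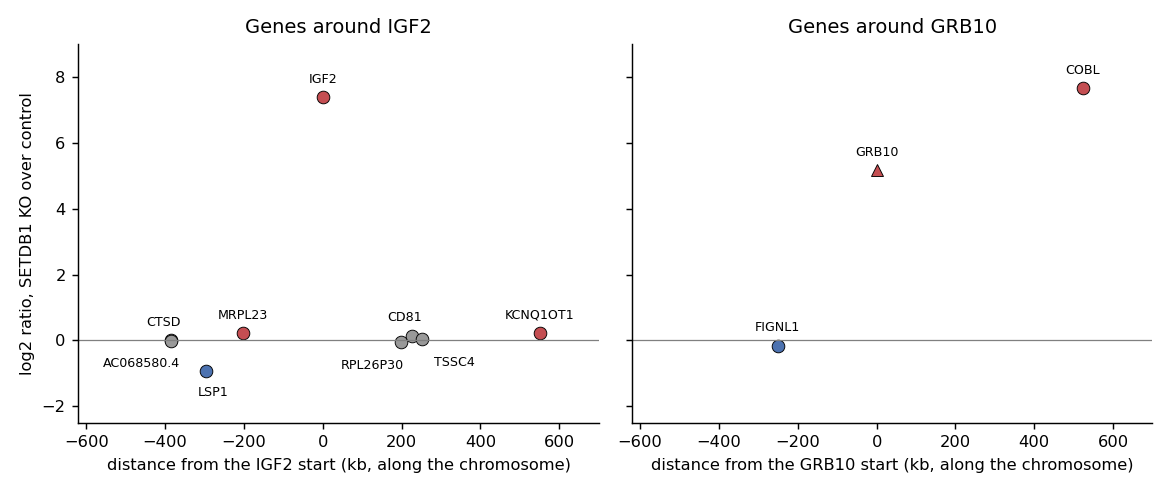
Log2 ratio of SETDB1 knockout over control for tested genes at least partly within 500 kb of IGF2 or GRB10, against the distance between gene starts in kb. Red and blue points are genes called higher and lower by edgeR and gray points were not called. For IGF2, GRB10 and COBL the red color is a description only. IGF2 and COBL are at their count ratios and the GRB10 triangle is a lower bound. None of the other genes plotted around IGF2 rose like it, while COBL lies beside GRB10 near the top.

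Over the longer list of the 11p15.5 imprinted domain, 10 of 16 genes were tested. Of the 9 other than IGF2, 4 were higher and 2 lower, against 31.9% and 31.6% of all genes tested. Only 1 was lower without SETDB1-knockout replicate 2, control replicate 2 or control replicate 3. The median of the 9 was 0.14, against 0.01 for all genes tested. PHLDA2, a maternally expressed growth restrainer of the placenta, rose 1.46-fold to 22.4 ± 1.69 CPM, and the oxysterol-binding protein gene OSBPL5 1.49-fold to 4.55 ± 0.346 CPM. SLC22A18, a transporter gene, fell from 8.85 ± 1.12 to 6.40 ± 0.373 CPM. The edgeR adjusted p of these 3 was 0.00107 or lower.

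By distance over all 6 libraries in log2(CPM + 0.1), the 5 tested genes most like IGF2 were FAM155B and FAM133A on the X chromosome, BOK-AS1 on chromosome 2, ADARB2 on chromosome 10 and SALL1 on chromosome 16. Their distances were 0.942 to 1.21 on this scale, and each had 1 to 4 control counts. All 5 passed the filter on low counts only through their knockout libraries, so their values are a description. SALL1, a developmental zinc finger gene, stood at 11.01 to 11.4 CPM in the knockout libraries, and ADARB2, which encodes an RNA-editing enzyme relative of the brain, at 13.1 to 14.2 CPM. BOK-AS1 is an antisense gene, so its reads cannot be told apart from those of a gene on the other strand.

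The receptors moved in different directions. IGF1R (chromosome 15, 98648539 to 98964530), the main signalling receptor of both IGFs, had 49.1, 45.4 and 46.8 CPM in the knockout and 91.4, 85.5 and 78.1 CPM in the control. All 3 knockout libraries lay below all control libraries. Its log2 fold change was -0.85 ± 0.06 (SE; 95% interval -0.98 to -0.72; edgeR adjusted p = 2.57e-10), and -0.74 with the median of the genes around it taken out.

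IGF2R (chromosome 6, 159969099 to 160113507), the scavenger receptor, had 534, 480 and 483 CPM in the knockout and 423, 385 and 373 CPM in the control. The groups did not overlap, although knockout replicate 1 and control replicate 1 were each the highest of their group. The log2 fold change was 0.34 ± 0.06 (SE; edgeR adjusted p = 6.13e-05).

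INSR (chromosome 19, 7112255 to 7294034), the insulin receptor gene, had 18.4, 17.0 and 16.1 CPM against 15.3, 14.98 and 13.95 CPM. The groups were separate by a narrow margin, and the INSR log2 fold change was 0.22 ± 0.07 (SE; 95% interval 0.07 to 0.37; edgeR adjusted p = 0.0125, range 0.00336 to 0.331 over the alternatives). INSR no longer passed the test without SETDB1-knockout replicate 1 (0.17, edgeR adjusted p = 0.0538) and without control replicate 3 (0.17, edgeR adjusted p = 0.0602). The genes around INSR had a median of 0.30, above its own change, and relative to that median INSR stood at -0.085 on the log2 scale (edgeR adjusted p = 0.331). The part of these surroundings in the change was not tested.

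With IGF1R lower and INSR slightly higher, the receptor mix differed between the groups. Per kb of exon, INSR made up 33.3%, 33.4% and 31.4% of the summed IGF1R and INSR level in the knockout libraries and 18.3%, 18.95% and 19.2% in the control libraries. The means were 32.7% ± 1.13 and 18.8% ± 0.485 (SD, n = 3), a difference of 13.9 percentage points (a two-sided exact permutation p = 0.10, the smallest that 3 against 3 allow, and 0.10 after Benjamini-Hochberg adjustment over the 4 shares compared). IGF1R still exceeded INSR in every library.

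The substrate genes both rose. IRS1 (chromosome 2, 226731317 to 226799759) had 24.1, 24.4 and 25.5 CPM in the knockout against 16.3, 16.2 and 15.4 CPM in the control, which is a clear gap beside the narrow spread within each group. Its log2 fold change was 0.63 ± 0.06 (SE; edgeR adjusted p = 4.20e-08). The genes around it had a median of 0.28, and with that taken out its change was 0.35 (edgeR adjusted p = 9.62e-05).

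IRS2 (chromosome 13, 109752698 to 109786568) had 3.60, 4.39 and 3.89 CPM against 1.47, 1.32 and 1.67 CPM. The lowest knockout library was above 2 times the level of the highest control library. The log2 fold change was 1.41 ± 0.14 (SE; edgeR adjusted p = 4.39e-08), with surroundings at -0.10. IRS1 kept most of the substrate level: per kb it made up 83.6% ± 1.44 of IRS1 plus IRS2 in the knockout and 89.8% ± 1.32 in the control (exact two-sided permutation p = 0.10, the smallest possible), and IRS4 was not analysed here.

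**Figure D3:**
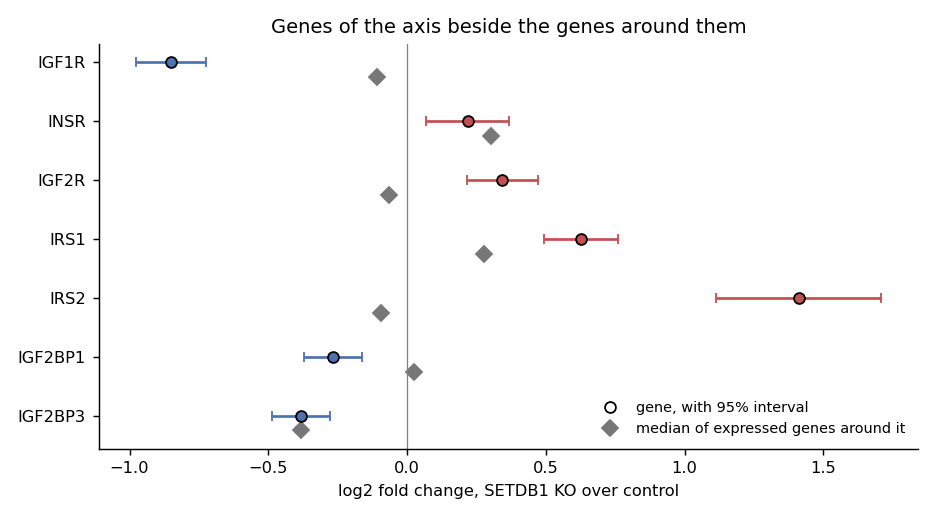
Log2 fold change, SETDB1 knockout over control, of the 7 measured genes other than IGF2 and GRB10 (circles, 95% interval from the edgeR fit) and the median of up to 25 expressed genes on each side (diamonds). The IGF2BP3 and INSR circles lie at or below the size of their diamonds, whereas those of IGF1R and IRS2 lie far from theirs.

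Both oncofetal RNA-binding protein genes fell. IGF2BP1 (chromosome 17, 48997412 to 49055650) had 212, 204 and 210 CPM in the knockout and 249, 253 and 252 CPM in the control, with no overlap. Its log2 fold change was -0.27 ± 0.05 (SE; edgeR adjusted p = 1.08e-04), while the genes around it had a median of 0.02.

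IGF2BP3 (chromosome 7, 23310209 to 23470467) had 60.0, 61.3 and 60.9 CPM against 77.8, 78.4 and 81.2 CPM. The libraries of each group were close together and the groups apart, with a log2 fold change of -0.38 ± 0.05 (SE; edgeR adjusted p = 1.54e-06). The genes around it had the same median, -0.38, and with it taken out the change was -0.00045 (edgeR adjusted p = 0.995). The part of these surroundings in the change was not tested. Exons of MALSU1 on the other strand cover part of the gene, and 82.1% of its exon bases are free of other genes; MALSU1 itself differed by -0.16 on the log2 scale (edgeR adjusted p = 0.0566).

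The third family member, IGF2BP2, which is also expressed in adult tissues, had 113 ± 2.54 and 120 ± 4.74 CPM, with a difference of -0.09 on the log2 scale and a 95% interval of -0.19 to 0.02 (edgeR adjusted p = 0.151). Per kb, IGF2BP3 made up 13.2% ± 0.190 of the family level in the knockout and 14.9% ± 0.0850 in the control. IGF2BP1 made up 42.5% ± 0.817 and 44.3% ± 0.762. The IGF2BP3 shares did not overlap between groups, and those of IGF2BP1 nearly did, at 43.41% in knockout replicate 1 and 43.44% in control replicate 3 (exact two-sided permutation p = 0.10 for both, the smallest possible). With counts not divided by length the IGF2BP1 shares overlapped, at 55.5% in knockout replicate 1 and 54.95% in control replicate 3, and the difference was -1.22 in place of -1.84 percentage points (exact two-sided permutation p = 0.20).

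**Figure D4:**
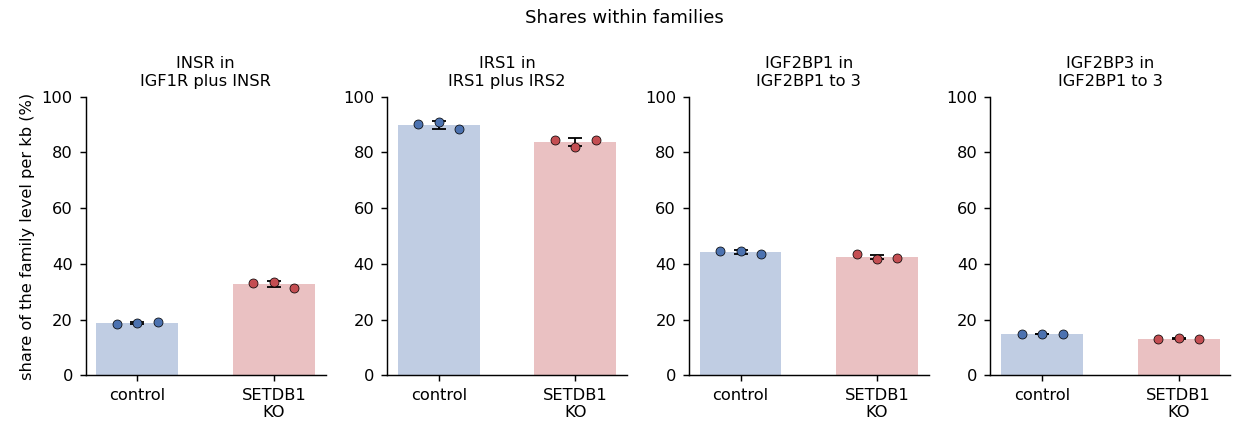
Share of INSR, IRS1, IGF2BP1 and IGF2BP3 in the summed level per kb of exon of their families, in percent. Points are libraries, bars are means and error bars are SD over 3 libraries. INSR rises from 18.8% to 32.7% of the receptor pair, and the other shares are lower in the SETDB1 knockout, with differences of -6.19 to -1.71 percentage points.

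Set side by side per kb of exon and leaving IGF2 out, the control level ran from IGF2BP1 (27.6 ± 0.256 CPM per kb) through IGF2R (22.0 ± 1.46), IGF2BP3 (9.30 ± 0.210), IGF1R (6.10 ± 0.479), IRS1 (1.61 ± 0.0483) and INSR (1.41 ± 0.0692) to IRS2 (0.183 ± 0.0211). In the SETDB1 knockout IGF2R came first, at 28.0 ± 1.69 CPM per kb, before IGF2BP1 at 22.9 ± 0.450. The others kept their order, from IGF2BP3 (7.14 ± 0.0768) and IGF1R (3.38 ± 0.135) to IRS1 (2.48 ± 0.0742), INSR (1.64 ± 0.112), IRS2 (0.487 ± 0.0492) and GRB10 (0.114 ± 0.0132). Neighbours in each order did not overlap among the libraries of a group.

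The 4 IGF binding protein genes with a row fell. In a list of ligands, binding proteins and their proteases, 9 of 17 were tested. Of the 8 other than IGF2, 7 were lower, against 31.6% of all genes tested, with a median of -1.15. This list is mixed, since it also holds proteases that can cleave binding proteins and inhibitors of such proteases. IGFBP3, the main carrier of IGFs in serum, fell 4.66-fold from 37.6 ± 2.59 to 8.05 ± 0.520 CPM, in surroundings with a median of -0.35. IGFBP2 fell from 20.97 ± 2.39 to 8.90 ± 0.2998 CPM. IGFBP4 and IGFBP6, named after their values were seen, were also lower, so that each of the 4 binding protein genes with a row fell. HTRA1, a secreted serine protease that can cleave binding proteins, fell 7.14-fold from 9.93 ± 0.475 to 1.39 ± 0.0822 CPM, with surroundings at -0.53. The highest edgeR adjusted p among these 5 was 4.87e-06. STC1, an inhibitor of the pappalysin proteases, stood at 63.2 ± 2.03 and 63.5 ± 4.45 CPM (edgeR adjusted p = 0.934). The gene for the other ligand, IGF1, was not analysed here.

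**Figure D5:**
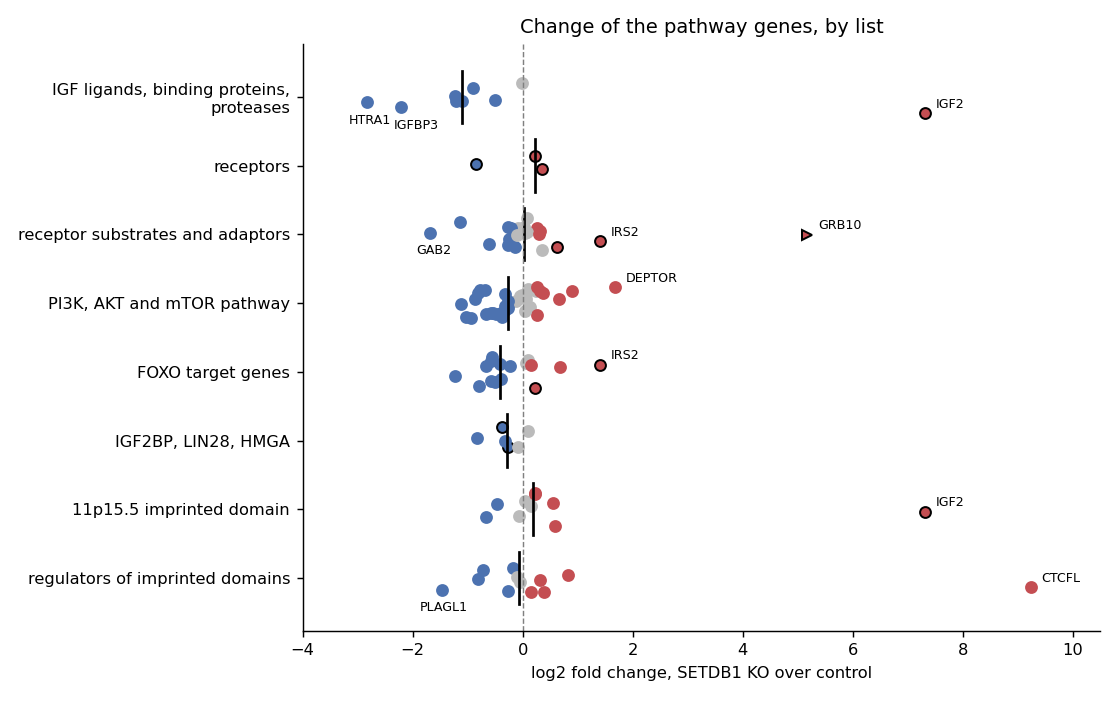
Log2 fold change, SETDB1 knockout over control, of each tested gene in 8 lists. Red and blue points are genes called higher and lower by edgeR and gray points were not called. For IGF2, GRB10 and CTCFL the red color is a description only. Black outlines mark the genes of the axis, black bars the list medians (IGF2 included) and the dashed line the median of all genes tested. The GRB10 triangle is a lower bound. In the list of ligands, binding proteins and proteases the genes other than IGF2 lie at or below 0, with a list median of -1.10.

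Other adaptors were mixed. Of 21 receptor substrates and adaptors tested, 6 were higher and 8 lower, against 31.9% and 31.6% of all genes tested. GRB10 is among the 6, and its call is a description, since it passed the filter on low counts only through its knockout libraries. The list median was 0.03, which stays the same with GRB10 at its bound. GAB2, a docking protein for PI3 kinase and SHP2, fell from 16.6 ± 0.602 to 5.17 ± 0.417 CPM, and its relative GAB1 from 8.58 ± 0.0987 to 5.59 ± 0.743 CPM. GRB14, the paralog of GRB10 and a fellow receptor inhibitor, fell from 5.34 ± 0.192 to 2.42 ± 0.385 CPM (log2 fold change -1.13 ± 0.12 SE, edgeR adjusted p = 1.11e-07), in surroundings at -0.47.

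More genes of the PI3 kinase, AKT and mTOR pathway were lower than higher, at 20 and 7 of 36 tested, with a median of -0.27. Of all genes tested, 31.6% were called lower and 31.9% higher. GSK3A, a kinase that AKT inhibits, fell from 121 ± 4.90 to 63.0 ± 0.804 CPM where its surroundings had a median of -0.82. FOXO1, a transcription factor that AKT keeps out of the nucleus, fell from 3.17 ± 0.545 to 1.55 ± 0.147 CPM with surroundings at -0.13. DEPTOR, an mTOR inhibitor, rose 3.21-fold to 1.79 ± 0.109 CPM, and EIF4EBP1, a translation repressor under mTOR, rose 1.29-fold. AKT1S1 rose 1.58-fold where its surroundings had a median of 0.80, and with that taken out it was at -0.14 (edgeR adjusted p = 0.0328). The highest edgeR adjusted p among these 5, before any such correction, was 1.66e-05.

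FOXO target genes, which insulin and IGF signalling holds down, were lower in 10 and higher in 4 of 16 tested, with a median of -0.41. Lower and higher calls made up 31.6% and 31.9% of all genes tested. The part of IGF signalling in these changes was not tested. IRS2 and INSR belong to this list and went against its majority, as did TRIB1, a pseudokinase gene, which rose 1.59-fold to 15.6 ± 0.482 CPM. SESN1 and SESN3, which encode stress-induced sestrins, fell 1.74-fold and 1.59-fold, and GADD45A, a growth arrest gene, fell 1.49-fold. Among these 4 the highest edgeR adjusted p was 2.59e-04. The median log2 fold change of the surroundings was -0.46 for SESN1, -0.28 for SESN3, -0.15 for GADD45A and 0.29 for TRIB1. With neighbourhood medians taken out, 8 genes of the list were called lower and 4 higher.

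Beside IGF2BP1 and IGF2BP3, the oncofetal list held LIN28B, an inhibitor of let-7 maturation, which fell from 165 ± 8.81 to 92.1 ± 7.14 CPM (edgeR adjusted p = 3.72e-10, surroundings at -0.50). The chromatin protein gene HMGA1 fell 1.25-fold, while HMGA2 had 749 ± 56.8 and 705 ± 28.5 CPM and did not pass the test (edgeR adjusted p = 0.221). Of the 6 tested, 4 were lower and 0 higher, against 31.6% and 31.9% of all genes tested, with a median of -0.29. DESeq2 and limma-voom also called 0 higher, and by edgeR 0 were higher at an unadjusted p under 0.05. Without SETDB1-knockout replicate 1 there was 1 called higher.

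Regulators of imprinted domains were higher in 5 and lower in 5 of 12 tested, with a median of -0.08. The shares over all genes tested were 31.9% and 31.6%. CTCFL is a testis-expressed relative of CTCF, the insulator factor that binds the control region between IGF2 and H19. It went from 0.334, 0.0946 and 0.226 CPM in the control to 122, 136 and 138 CPM in the knockout. CTCF rose 1.31-fold to 79.8 ± 3.08 CPM, and lost its call with the median of its surroundings taken out (0.08, edgeR adjusted p = 0.177). TRIM28, a SETDB1 partner, rose 1.76-fold where its surroundings had a median of 0.66. PLAG1, a zinc finger activator of IGF2 promoters, fell from 45.8 ± 1.82 to 26.02 ± 0.544 CPM, and its imprinted relative PLAGL1 fell from 61.7 ± 4.55 to 22.3 ± 1.52 CPM. WT1, a zinc finger factor known to act on IGF2, fell from 10.9 ± 0.680 to 6.56 ± 0.264 CPM. The edgeR adjusted p of each of these genes other than CTCFL was 2.16e-06 or lower as measured. CTCFL, counted among the 5 higher, passed the filter on low counts only through its knockout libraries, so its values are a description.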

How the data were processed

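RNA-seq was analysed for 3 SETDB1-knockout and 3 control-knockout samples of H1299 cells, grouped and numbered by their titles. The authors deposited whole-number read counts for each Ensembl gene. Tools named in the submitters' processing notes are TopHat2, HTSeq and FastQC, without versions, with the build GRCh38.p7. The counting settings, strand and annotation release: not given in the sources used here. Every row had at least 1 library with 11 or more counts.

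Ensembl identifiers, versions dropped, were looked up in GENCODE 29 (18595 of 18677). Genes were filtered by filterByExpr (17675 kept, 1002 removed), scaled by TMM and tested in R 4.3.3 with edgeR 4.0.16 (robust quasi-likelihood, threshold 0.05); 1 count was 0.0282 to 0.0334 CPM. SE was derived from the F statistic. Levels per kb used the union of GENCODE 29 exons. Steps were tested on simulated data. Counting intervals are exact at 95%, and floors (3 counts over a group) and intervals cover counting error only.

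The members and lists were chosen with earlier results of these data known. Named genes were all members, up to 3 higher and 3 lower called genes of each list by size with at least 1 CPM in the higher group, the 5 genes nearest IGF2, and called genes within 500 kb of IGF2 or GRB10. A gene that this rule names is not reported here. The alternatives tried were scaling by library size alone or by DESeq2 size factors, no filter, 1 CPM in 3 libraries, DESeq2 1.42.0, limma-voom (limma 3.58.1), the replicate block, each library left out, the median of 25 expressed genes on each side (log2 CPM above 3) taken out, and, for shares, counts not divided by length.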

Additional observations from a re-analysis of the deposited data

How the results depend on the processing

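GRB10, IGF1R, IGF2R, IRS1, IRS2 and IGF2BP1 kept their direction and their side of the threshold under all 14 alternatives run for each. INSR did so under 11 and IGF2BP3 under 13. For GRB10 this is a description, since only its knockout libraries had reads. With neighbourhood medians taken out, the log2 fold change was -0.085 for INSR, -0.14 for AKT1S1, 0.19 for FIGNL1 (edgeR adjusted p = 0.0258) and 0.0075 for VIM, each a change of sign. In that setting the regulators of imprinted domains had 2 called higher in place of 5, the oncofetal list 1 in place of 0 and the receptors 1 in place of 2. The 11p15.5 list had 1 called lower in place of 2 with DESeq2 and with at least 1 CPM in 3 libraries, and 3 with neighbourhood medians taken out. With each library left out, receptors called higher ranged from 1 to 2 (1 without SETDB1-knockout replicate 1 or control replicate 3), oncofetal genes called higher from 0 to 1 (1 without SETDB1-knockout replicate 1) and 11p15.5 genes called lower from 1 to 2 (1 without SETDB1-knockout replicate 2, control replicate 2 or control replicate 3). The FIGNL1 log2 fold change kept its direction and its call under 7 of 14 alternatives, and lost its call with DESeq2 (adjusted p = 0.0936). With counts not divided by length the INSR share differed by 11.9 percentage points and the IGF2BP1 share by -1.22, the groups then overlapping. Same-numbered samples deviated together only weakly (r of 0.0878, -0.0628 and 0.0248), and not every sample correlated best with its own number, so the numbers were not taken as pairs; with the replicate block all genes called higher were 5864 and all genes called lower 5839, against 5635 and 5584, and the members without IGF2 had 5 higher and 3 lower, as without the block. With library size alone these counts were 6155 and 5088. Depth limited the control values of IGF2, GRB10 and COBL, which rest on 6 counts or fewer.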
